A study of Mus musculus with 72 samples.

Results

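The comparison described here is between the livers of male and female C57BL/6J mice, an inbred laboratory strain, fed the Control diet, across all expressed autosomal genes. The libraries were chosen by their labels: 6 of males and 6 of females, 12 of the 72 in the series. Of 19362 genes with enough counts to test, 18738 lie on autosomes. Genes of the X and Y chromosomes were used only to check the labels. In the series, RNA of mouse livers was sequenced after diets that differed in their protein content. Its 12 groups are 2 strains (C57BL/6J and DBA/2J), both sexes and 3 diets (Control, Medium Protein and Low Protein), with 6 libraries each. All mice began their diet at 10 weeks of age, ate it for 13 weeks and gave their livers at 23 weeks of age, fasted for 16 h and housed near 22 °C. The males and females compared thus share strain, diet, age, housing temperature and fast. Nothing in the labels gives an altered gene, a hormone treatment, the state of the oestrous cycle or shared litters. Each label is read as 1 animal. Titles open with a number and the letter N or R, whose meaning is not given. Some numbers recur within a group, and all animals were treated as independent. The p-values rest on the spread between libraries within groups, estimated over all 72 libraries of the 12 groups and not over the 12 compared alone.

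Sex differences in mouse liver come largely from the pattern of pituitary growth hormone, which is released in separated pulses in males and almost continuously in females. Each pulse activates the transcription factor STAT5B in hepatocytes, and the female pattern keeps its activity lower and more even. BCL6, a repressor favoured in male liver, and CUX2, a factor found in female liver, act on many of the same genes, and HNF4A is needed for much of the sexual difference. The best known targets are secreted pheromone carriers, cytochromes P450, sulfotransferases and transporters, many of which sit in arrays of near-identical genes.

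A STAT5 site has the core letters TTCNNNGAA, a palindrome that reads the same on both strands. It was looked for in the RefSeq promoter windows of the GRCm38.p6 build, which run from 250 bases before to 50 bases after a gene start. Of all 32851 promoters in that table, 8.3% (2726) hold it, and of 11630 that belong to autosomal genes tested here 7.18% do. Among genes at least 2-fold higher in males it was found in 17 of 200 (8.5%), and among genes at least 2-fold lower in 22 of 278 (7.91%). Of the 139 genes described below 108 have a window in the table and 10 of these hold the core. The windows of 4 genes with a large sex difference are printed to show it, 1 for a gene higher in males (Nox4, which encodes an NADPH oxidase) and 3 for genes lower in males. These are Sult3a1 (a sulfotransferase), A1bg (alpha-1-B glycoprotein) and Slc22a26 (an organic anion transporter). Capitals mark the core, which starts 222 bases before the gene start in Nox4, 109 before it in Sult3a1, 84 in A1bg and 141 in Slc22a26. The match describes the letters of these windows, and no binding was measured.
Nox4, chr7:87246399-87246698, plus strand: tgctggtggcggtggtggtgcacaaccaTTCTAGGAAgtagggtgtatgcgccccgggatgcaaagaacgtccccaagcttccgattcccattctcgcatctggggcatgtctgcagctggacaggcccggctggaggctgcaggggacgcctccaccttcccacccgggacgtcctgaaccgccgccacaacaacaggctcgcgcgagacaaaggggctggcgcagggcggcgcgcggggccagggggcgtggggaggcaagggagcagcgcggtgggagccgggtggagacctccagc
Sult3a1, chr10:33857472-33857771, plus strand: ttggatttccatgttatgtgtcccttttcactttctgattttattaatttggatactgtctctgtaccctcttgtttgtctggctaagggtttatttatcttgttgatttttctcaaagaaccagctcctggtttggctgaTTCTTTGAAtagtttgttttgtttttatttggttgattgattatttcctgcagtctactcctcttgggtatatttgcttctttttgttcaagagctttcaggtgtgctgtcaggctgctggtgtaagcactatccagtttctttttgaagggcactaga
A1bg, chr15:60921221-60921520, minus strand: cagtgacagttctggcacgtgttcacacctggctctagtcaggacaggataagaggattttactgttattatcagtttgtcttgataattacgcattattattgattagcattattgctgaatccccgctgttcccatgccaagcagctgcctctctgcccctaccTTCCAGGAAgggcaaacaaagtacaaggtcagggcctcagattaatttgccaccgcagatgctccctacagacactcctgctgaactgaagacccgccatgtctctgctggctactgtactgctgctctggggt
Slc22a26, chr19:7802618-7802917, minus strand: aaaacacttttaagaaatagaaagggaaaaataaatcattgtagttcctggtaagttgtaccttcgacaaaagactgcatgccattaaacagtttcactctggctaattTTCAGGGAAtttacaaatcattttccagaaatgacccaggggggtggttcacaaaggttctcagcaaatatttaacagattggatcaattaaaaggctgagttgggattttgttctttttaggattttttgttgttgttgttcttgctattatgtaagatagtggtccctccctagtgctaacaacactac

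Xist, the RNA that silences 1 X chromosome, was at 0.341, 0.46 and 1.45 CPM (scaled counts relative to the library total) in males, given here and below as the lowest, the median and the highest of 6 libraries, against 1095, 1309 and 1437 CPM in females. The Y-linked gene Ddx3y was at 70.8, 75.9 and 76.9 CPM in males and at 0 in all 6 females, so every library went with its label. Library totals ran over 29082497 to 37832918 counts in males and over 27745114 to 38447505 in females. Scaling factors did not overlap, at 0.618 to 0.931 in males against 1.03 to 1.14 in females. Ribosomal-like RNA (Gm26917, CT010467.1, Rn18s-rs5, Lars2, AY036118 and Gm42418) took 35% of the counts in male 6, 12.7% in male 1, 1.24% in male 3 and at most 0.202% in the others. Female 1 stood apart on the second principal component (10.3% of the variance), while the first (34.4%) separated the sexes. Well-like codes in the labels put males in 1 column and females in another, so sex and that position cannot be told apart. The hepatocyte markers summed to 75500 to 87800 CPM in males and 75200 to 89100 CPM in females, with none of the 8 at 0. A count in a gene list that moved by more than 1.5 times without males 1 and 6, or without these and female 1, is given with the other value.

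Of the 18738 autosomal genes, 3855 (20.6%) passed an adjusted p of 0.05, 2186 higher in males (11.7%) and 1669 lower (8.91%). The median over all autosomal genes tested was -0.01 on the log2 scale. Large differences were fewer: 334 genes were at least 2-fold higher and 484 at least 2-fold lower, and 124 and 142 were past 4-fold. Among those past 4-fold, 88 of the genes higher and 80 of the genes lower in males had values in the 6 males that did not overlap those of the 6 females. Genes picked by fold and p separate more readily. The share without overlap over all genes was not counted, here or for the lists below. The difference in number between the directions depends on scaling: with library totals alone 464 genes were higher and 8142 lower, since that setting moved the median of all genes to -0.35. Fold changes of gene groups below are therefore read against the median of all genes, and a group median that changes sign under library totals is given with both values. Counts in the gene lists below are to be read against the shares over all autosomal genes, 11.7% higher and 8.91% lower. 

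**Figure D1:**
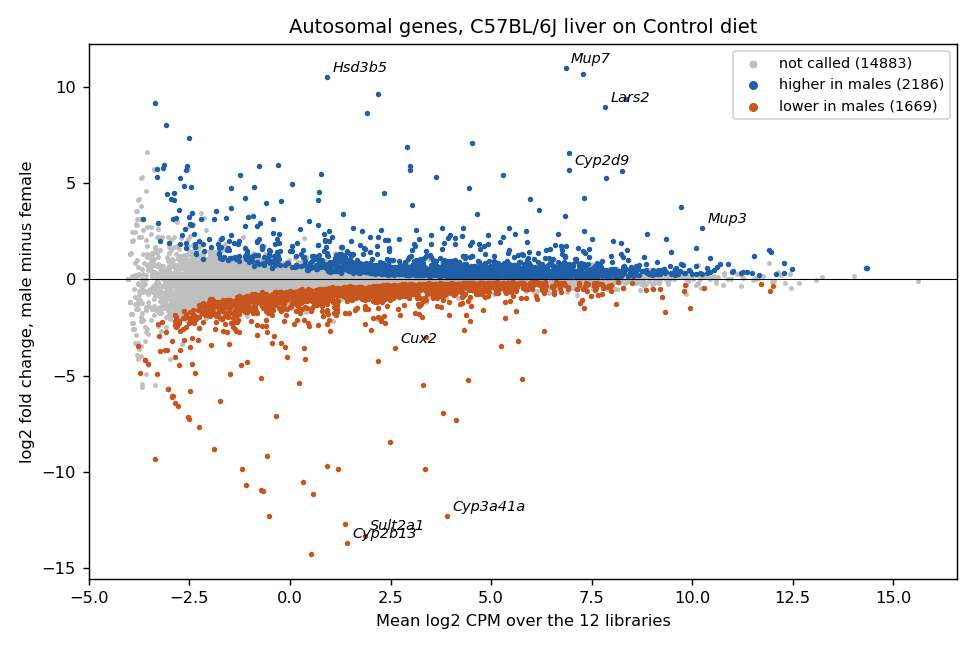
Log2 fold change of males over females (vertical axis) against the mean log2 CPM of the 12 libraries (horizontal axis), 1 point per autosomal gene tested. Blue points are the 2186 genes higher in males, orange points the 1669 lower in males and grey points the genes that did not pass. The largest differences lie at low to middle values of this mean, which covers both sexes and is lowered where 1 sex is near 0. Mup7 and Cyp3a41a, named among them, had medians of 4336 CPM in males and 1277 CPM in females.

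Many of the largest differences lay in a few gene arrays. Chromosome 4 held 24.2% of the genes more than 4-fold higher in males, against 6.16% of the genes tested, and 18 of its 30 were major urinary protein genes. Chromosome 7 held 27.5% of the genes more than 4-fold lower, against 8.23% of the genes tested. Of its 39, 9 had Sult symbols, a pattern that also takes in pseudogenes, and 6 had Cyp2 symbols. Chromosome 5 held 10.6% of them, with 6 genes of Cyp3a symbols among its 15 (the pseudogene Cyp3a63-ps is 1 of them and is in no list used here), and chromosome 19 held 9.15%. Most genes past 4-fold code for protein, 88 of 124 higher and 91 of 142 lower. Counts of 0 in a whole group were found for 24 called genes in males and for 7 in females. 

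**Figure D2:**
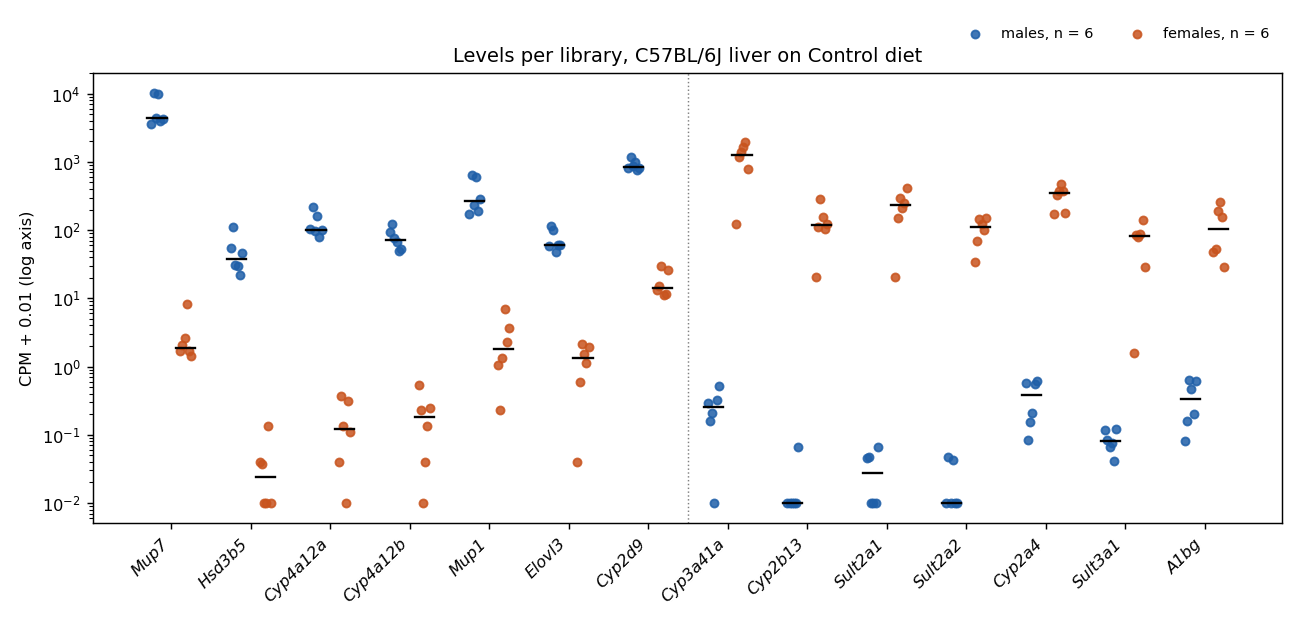
CPM plus 0.01 on a log axis for 7 genes higher and 7 genes lower in males, 1 point per library, with 6 males (blue, left) and 6 females (orange, right) per gene and a bar at the median. The points of the sexes do not overlap in any of the 14 genes. Female 1 is the lowest female point for Cyp3a41a, Cyp2b13, Sult2a1, Sult2a2, Cyp2a4 and Sult3a1, by a small gap for Cyp2a4.

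Of the growth hormone pathway itself, the receptor was higher in males, while the call of the circulating growth factor it drives depended on the setting. Ghr, the growth hormone receptor, stood at 322, 415 and 463 CPM in males, against 174, 267 and 314 CPM in females, with no overlap (log2 fold change 0.70 ± 0.14 SE, adjusted p = 0.000161). Igf1, the growth factor that the liver secretes in answer to the hormone, was at 473, 527 and 631 CPM in males and 334, 403 and 571 CPM in females (log2 fold change 0.36 ± 0.11 SE, adjusted p = 0.0095). Its ranges overlapped, and 1 of the 6 males was above every female. The call of Igf1 was lost with only the compared groups (0.35, adjusted p = 0.0641), with library totals (0.02, adjusted p = 0.889) and against a fold of 1.2 (adjusted p = 0.328). Igfals, which holds IGF1 in the blood in a ternary complex, was higher too (log2 fold change 0.65 ± 0.16 SE, adjusted p = 0.0024), with 5 of 6 males above every female. With library totals the call of Igfals was lost (0.32, adjusted p = 0.108). Prlr, the prolactin receptor, was lower in males (log2 fold change -0.61 ± 0.18 SE, adjusted p = 0.0112), as was Igfbp1, an insulin-suppressed IGF binding protein, at 9.48, 20.8 and 69.9 CPM in males against 21.3, 96.2 and 230.2 CPM in females (log2 fold change -2.02 ± 0.61 SE, adjusted p = 0.0118). Stat5b had 40, 44.6 and 50.2 CPM in males and 33.1, 39.5 and 41.8 CPM in females, a difference of 0.21 ± 0.09 (adjusted p = 0.101) that did not pass. Socs2, an inhibitor induced by STAT5B, had -0.79 ± 0.42 (adjusted p = 0.184) and did not pass either, but it passed with library totals (-1.17, adjusted p = 0.0205). Of 19 genes of growth hormone signalling and its targets, 4 were higher in males and 3 lower, with a median of 0.10, or -0.23 with library totals.

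Among transcription factors tied to sex bias in liver, the female-pattern factors were lower in males by the widest margins. Cux2 reached 0.824, 1.64 and 3.67 CPM in males against 12.8, 23.7 and 28.6 CPM in females, and the groups did not overlap (log2 fold change -3.57 ± 0.59 SE, adjusted p = 5.26e-06). Tox, a nuclear factor with a high mobility group box, was at 5.58, 7.79 and 10.5 CPM in males and 11.6, 21.6 and 27.6 CPM in females, again with no overlap (log2 fold change -1.37 ± 0.18 SE, adjusted p = 2.25e-08). Trim24, a co-regulator of nuclear receptors, was lower in males (log2 fold change -0.86 ± 0.17 SE, adjusted p = 0.000112), and 5 of 6 males were below every female. Esr1, the oestrogen receptor alpha, was at 21.6, 26.4 and 34.6 CPM in males against 38.7, 44.5 and 51.8 CPM in females, with no overlap (log2 fold change -0.69 ± 0.15 SE, adjusted p = 0.000577). Cebpa, a hepatocyte differentiation factor, was higher in 5 of 6 males than in every female (log2 fold change 0.53 ± 0.11 SE, adjusted p = 0.000461). Its call was lost with library totals (0.19, adjusted p = 0.194). Bcl6 spread widely, at 9.33, 16.9 and 44.2 CPM in males and 7.35, 11.5 and 14.4 CPM in females, and did not pass (0.87 ± 0.52, adjusted p = 0.243), the highest value being that of male 4. Hnf4a differed by 0.17 ± 0.13 (adjusted p = 0.389) and did not pass. Of 29 such factors, 7 were higher in males and 3 lower, with a median of 0.21, or -0.12 with library totals, with 4 higher and 3 lower without males 1 and 6 alone.

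The major urinary proteins, small lipocalins that carry pheromones into urine and are made by the liver, were higher in males in every member tested. Of 21 tested of 22 major urinary protein genes, 21 were higher in males and 0 lower, with a median of 3.78. In 20 of them the 6 males did not overlap the 6 females. Mup7 had 3538, 4336 and 10135 CPM in males against 1.42, 1.88 and 8.36 CPM in females (log2 fold change 10.99 ± 0.89 SE, adjusted p = 9.86e-16). Male 2 and male 4 were the highest males, and all 6 males were far above female 4, the highest female. Mup20, the protein known as darcin that attracts females, had 1902, 2604 and 4315 CPM in males and 14.8, 26.6 and 195 CPM in females (log2 fold change 5.67 ± 0.48 SE, adjusted p = 4.78e-15). Its highest female value was that of female 1, well above the other females and still below every male. Mup3 showed a smaller difference at a high level, with 2753, 3028 and 4163 CPM in males and 153, 509 and 876 CPM in females (log2 fold change 2.68 ± 0.22 SE, adjusted p = 1.72e-15). Mup1 was at 169.7, 263 and 653 CPM in males against 0.221, 1.8 and 7.05 CPM in females (log2 fold change 7.11 ± 0.58 SE, adjusted p = 9.86e-16). Mup11 (6.56 ± 0.76), Mup14 (5.30 ± 0.40) and Mup21 (5.70 ± 0.40) followed on the log2 scale, while Mup22 (1.54), Mup16 (1.55) and Mup10 (1.57) had the smallest differences. Together the Mup genes took 1.48% to 3.94% of all counts in males and 0.234% to 0.629% in females. Their sequences are so alike that reads may be divided between copies, so the value of a single copy is less certain than the sum.

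Cytochromes P450, the haem enzymes that oxidise steroids, fatty acids and drugs, split by subfamily. Of 9 Cyp3a genes, 0 were higher in males and 6 lower, with a median of -3.18. Cyp3a41a, a steroid hydroxylase of female liver, had 0, 0.242 and 0.501 CPM in males against 123, 1277 and 1986 CPM in females (log2 fold change -12.33 ± 0.59 SE, adjusted p = 1.16e-26). Female 1 was the lowest of the females, and every male was below 1 CPM. Its close copy Cyp3a41b had 0 counts in all 6 males against 0.646, 54.7 and 169.9 CPM in females, at least 4390-fold lower in males when 3 counts over the 6 libraries are taken as the floor (log2 fold change -14.31 ± 1.48 SE, adjusted p = 1.37e-10). With limma-voom this copy did not pass (-10.82, adjusted p = 0.109). Cyp3a16 had 3 counts in the 6 males together and 1.5, 41.3 and 120.0 CPM in females, a ratio of 2760 with an exact Poisson interval of 945 to 13400. Cyp3a44 was at 0, 0.0159 and 0.227 CPM in males and 17.4, 34.3 and 135 CPM in females (log2 fold change -9.71 ± 0.78 SE, adjusted p = 5.07e-16). Cyp3a11, the main drug-induced member, did not pass and was at 875, 1427 and 1569 CPM in males and 957, 1122 and 1733 CPM in females (0.15 ± 0.22, adjusted p = 0.694, or -0.21 with library totals).

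The promoter windows of both Cyp3a41 copies are printed because they show how alike the copies are around the gene start. Compared base by base without gaps, the 300 base windows differ at 8 positions and are 97.3% identical, and capitals mark the positions that differ. Reads from near-identical copies cannot always be assigned to one of them. The exons of these copies were not compared, so how far this applies to them was not tested.
Cyp3a41a, chr5:145720087-145720386, minus strand: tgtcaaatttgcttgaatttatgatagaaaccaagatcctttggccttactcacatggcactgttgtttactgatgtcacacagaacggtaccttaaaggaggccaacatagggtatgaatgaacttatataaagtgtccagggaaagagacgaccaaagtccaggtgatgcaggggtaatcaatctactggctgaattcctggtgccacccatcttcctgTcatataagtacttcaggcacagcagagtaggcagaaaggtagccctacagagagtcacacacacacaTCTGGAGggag
Cyp3a41b, chr5:145584681-145584980, minus strand: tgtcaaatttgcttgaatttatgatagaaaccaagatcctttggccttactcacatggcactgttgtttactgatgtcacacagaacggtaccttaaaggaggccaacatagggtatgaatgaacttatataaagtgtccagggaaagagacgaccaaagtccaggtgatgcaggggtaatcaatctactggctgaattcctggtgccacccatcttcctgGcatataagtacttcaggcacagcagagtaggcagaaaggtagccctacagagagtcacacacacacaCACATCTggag

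The 3 Cyp2b genes tested, and the Cyp2a genes that passed, were also lower in males. Both subfamilies hydroxylate testosterone and many foreign compounds. Cyp2b13 had 1 count in the 6 males together against 20.6, 118 and 284 CPM in females, a ratio of 23400 with an exact Poisson interval of 4200 to 924000 (log2 fold change -13.73 ± 0.69 SE, adjusted p = 7.82e-26). Cyp2b9 was at 0.749, 8.22 and 42.8 CPM in males and 291, 469.7 and 517 CPM in females (log2 fold change -5.17 ± 0.66 SE, adjusted p = 8.25e-09). Its highest male was male 5, and the groups did not overlap. Cyp2b10, the classic phenobarbital-induced member, was low in both sexes, at 0.0326, 0.218 and 0.734 CPM in males and 1.25, 2.15 and 12.4 CPM in females (log2 fold change -3.50 ± 0.61 SE, adjusted p = 1.26e-05). Of 3 tested of 5 Cyp2b genes, 0 were higher in males and 3 lower, with a median of -5.17. Cyp2a4, a steroid 15-alpha-hydroxylase, had 0.0749, 0.369 and 0.612 CPM in males against 174, 347 and 467 CPM in females (log2 fold change -9.85 ± 0.55 SE, adjusted p = 4.05e-23), with every female far above every male. Cyp2a22 was lower in males (log2 fold change -3.47 ± 0.45 SE, adjusted p = 1.21e-08), and 5 of 6 males were below every female. Of 4 Cyp2a genes, 0 were higher in males and 2 lower, with a median of -1.74.

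Members of the Cyp2c cluster on chromosome 19 went both ways, while Cyp2d and Cyp4a12 genes were higher in males. Cyp2c69 had 0.167, 1.55 and 5.54 CPM in males and 25.2, 245 and 456 CPM in females (log2 fold change -6.97 ± 0.58 SE, adjusted p = 2.64e-15), and Cyp2c40 was at 1.21, 3.15 and 11.6 CPM in males against 53.5, 166 and 255 CPM in females (log2 fold change -5.24 ± 0.41 SE, adjusted p = 1.75e-16). Male 3 was the highest male in both. Cyp2c54, an arachidonic acid epoxygenase, was at 221, 228 and 302 CPM in males and 20.3, 47.5 and 63.5 CPM in females (log2 fold change 2.39 ± 0.28 SE, adjusted p = 5.02e-10), and Cyp2c50 was higher by 1.32 ± 0.19. Of 13 tested of 15 Cyp2c genes, 4 were higher in males and 4 lower, with a median of 0.10, or -0.24 with library totals. Cyp2d9, a testosterone 16-alpha-hydroxylase of male liver, had 769, 849 and 1169 CPM in males against 11, 14.4 and 29.3 CPM in females (log2 fold change 5.67 ± 0.29 SE, adjusted p = 2.79e-25). Of 7 tested of 8 Cyp2d genes, 6 were higher in males and 0 lower, with a median of 0.80. Cyp4a12a, which makes 20-HETE from arachidonic acid, had 79.6, 102 and 219.5 CPM in males and 0, 0.112 and 0.359 CPM in females (log2 fold change 9.65 ± 0.76 SE, adjusted p = 2.43e-16). Its copy Cyp4a12b was at 49.8, 71.8 and 123 CPM in males and 0, 0.172 and 0.528 CPM in females (log2 fold change 8.67 ± 0.56 SE, adjusted p = 2.49e-20). All 6 males were above every female for both copies. Cyp4a14, a PPARA-induced hydroxylase of the same cluster, was lower in males (log2 fold change -0.61 ± 0.21 SE, adjusted p = 0.0268), but its call was lost when any 1 of females 2, 5 and 6 or of males 2 and 4 was left out, and without males 1 and 6 together (adjusted p = 0.0777). Of 14 tested of 20 Cyp4 genes, 6 were higher in males and 2 lower, with a median of 0.19, or -0.15 with library totals (5 higher and 1 lower without males 1 and 6 and female 1), with 5 higher and 1 lower without males 1 and 6 alone. Of other Cyp2 genes, Cyp2u1, a fatty acid hydroxylase, rose by 2.67 ± 0.23 and Cyp2f2, which oxidises naphthalene, by 1.199 ± 0.17, both with no overlap. Of 11 tested of 16 Cyp2 genes outside these subfamilies, 6 were higher in males and 0 lower, with a median of 0.44 (6 higher and 1 lower without males 1 and 6 and female 1), with 6 higher and 1 lower without males 1 and 6 alone.

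Steroid dehydrogenases and reductases, which switch sex and adrenal steroids between active and inactive forms, were mostly higher in males where they differed. Hsd3b5, a 3-ketosteroid reductase of male liver, had 22.3, 38.2 and 111 CPM in males against 0, 0.0138 and 0.123 CPM in females (log2 fold change 10.54 ± 0.76 SE, adjusted p = 4.67e-18). Every male was far above every female. Hsd3b2 was at 28.5, 45.2 and 50.8 CPM in males and 6.36, 11.9 and 20.9 CPM in females (log2 fold change 1.78 ± 0.28 SE, adjusted p = 1.15e-06). Srd5a1, a steroid 5-alpha-reductase, was at 33.6, 43.5 and 63.9 CPM in males and 6.09, 12.4 and 17.8 CPM in females, also with no overlap (log2 fold change 1.93 ± 0.21 SE, adjusted p = 3.11e-11). It stands in the list of textbook female-biased genes and went the other way here. Akr1c6, a 17-beta-hydroxysteroid dehydrogenase, was higher by 1.02 ± 0.19. Cyp17a1, the 17-alpha-hydroxylase of steroid synthesis, was at 10.9, 26 and 76.2 CPM in males against 156, 229 and 300.3 CPM in females (log2 fold change -2.70 ± 0.44 SE, adjusted p = 3.5e-06), and Hsd17b13, a lipid droplet protein, was lower by a smaller margin (log2 fold change -0.41 ± 0.09 SE, adjusted p = 0.000673). Of 30 tested of 36 genes of such enzymes, 14 were higher in males and 2 lower, with a median of 0.39. With library totals 6 were higher and 6 lower, with a median of 0.07.

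Sulfotransferases, which add sulfate to steroids, bile acids and phenols, were mostly lower in males. Of 19 tested of 27 sulfotransferase genes, pseudogenes included, 3 were higher in males and 14 lower, with a median of -4.39. With only the compared groups in the fit and its filter, 3 were higher and 7 lower, with a median of -1.42. With members at 0 in all males placed at their bound, which concerns 7 genes, the median was -3.46. Among these 7 are the pseudogenes Sult2a-ps1 and Sult2a-ps2 and the genes Sult2a4 and Sult2a6. They had only 40, 119, 76 and 16 counts over the 6 females together. Sult2a1, which sulfates bile acids and hydroxysteroids, had 3 counts in the 6 males together and 20.3, 233 and 409.9 CPM in females, a ratio of 12500 with an exact Poisson interval of 4290 to 60800. Sult2a2 had 2 counts in males and 34.4, 112 and 152 CPM in females (log2 fold change -12.71 ± 0.77 SE, adjusted p = 1.3e-20). Sult2a3, Sult2a5 and Sult3a2 had 0 counts in all 6 males and were at least 1140-fold, 446-fold and 365-fold lower in males. Sult3a1, whose promoter window is printed above, was at 0.0319, 0.0701 and 0.111 CPM in males and 1.56, 82.7 and 139.8 CPM in females (log2 fold change -9.88 ± 0.62 SE, adjusted p = 8.89e-21), and female 1 was the lowest female. Sult1e1, the oestrogen sulfotransferase, was at 0.0357, 0.242 and 1.39 CPM in males against 1.92, 5.97 and 15.2 CPM in females (log2 fold change -4.12 ± 0.82 SE, adjusted p = 0.000116). Against this trend Sult2a8, a bile acid sulfotransferase, had 522, 592 and 682 CPM in males and 105, 159 and 214 CPM in females (log2 fold change 1.90 ± 0.18 SE, adjusted p = 1.85e-13), and Sult5a1 (1.34) and Sult1b1 (0.68) rose as well. 

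**Figure D3:**
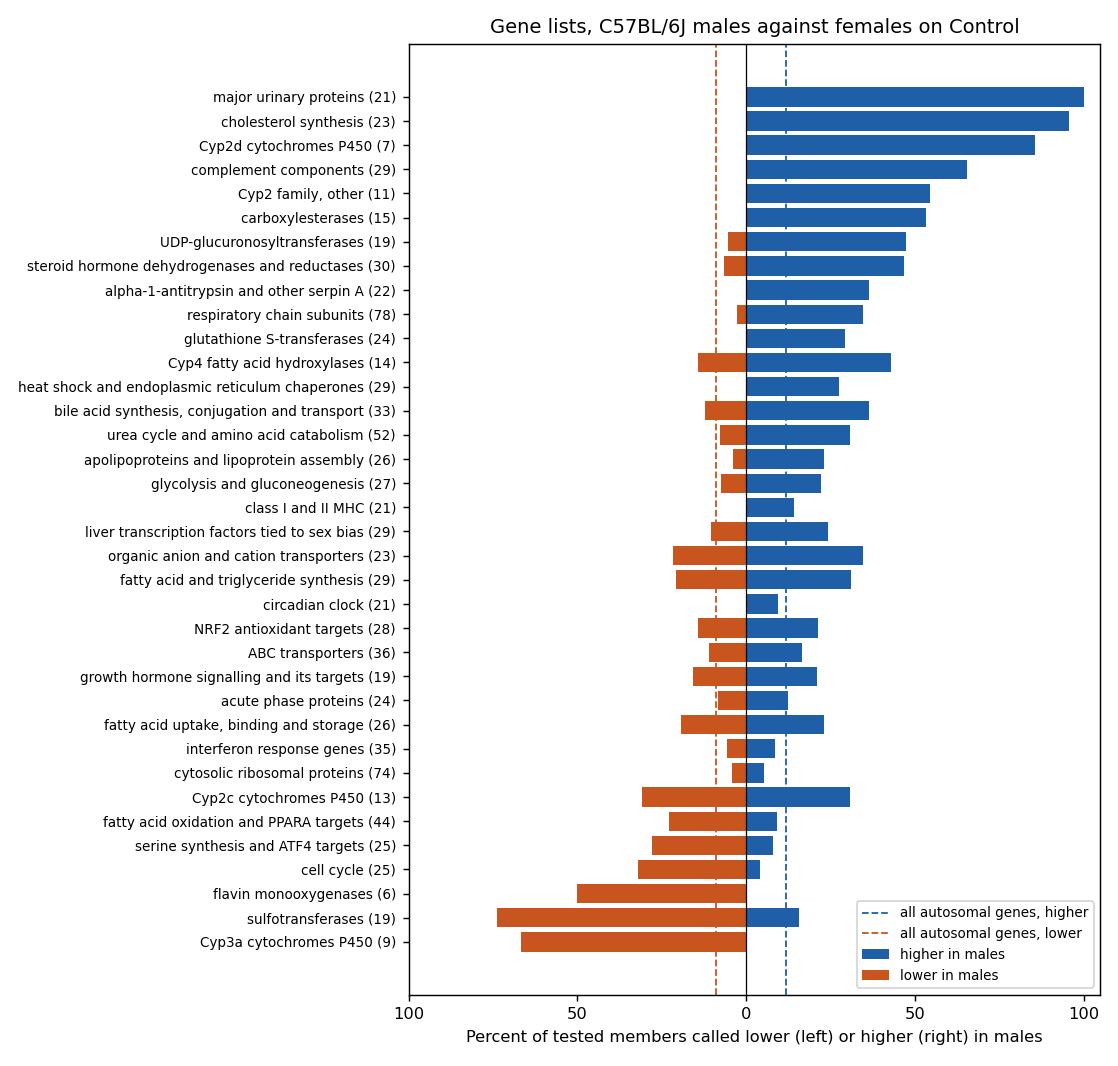
Percent of tested members that passed the test, for each gene list with at least 6 tested members other than the marker and textbook lists, higher in males to the right (blue) and lower to the left (orange), with the number of tested members in brackets and dashed lines at 11.7% and 8.91%, the shares over all autosomal genes. Major urinary proteins and cholesterol synthesis reach furthest to the right among the lists plotted, and sulfotransferases and Cyp3a genes furthest to the left.

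Other conjugating and hydrolysing enzymes rose more often than they fell, and the flavin monooxygenases were lower in males where they passed. Fmo2, a flavin monooxygenase, was at 16, 33.7 and 41.7 CPM in males and 56.2, 66.9 and 80.7 CPM in females with no overlap (log2 fold change -1.14 ± 0.27 SE, adjusted p = 0.00111). Of 6 tested of 7 flavin monooxygenase genes, 0 were higher in males and 3 lower, with a median of -0.87. Ugt2b1, a glucuronosyltransferase, was at 209, 256 and 353 CPM in males and 67.2, 96.3 and 123 CPM in females (log2 fold change 1.49 ± 0.18 SE, adjusted p = 1.5e-09), and Ugt2b38 rose by 4.79 ± 0.79. Ugt1a5 was lower in males (log2 fold change -0.85 ± 0.27 SE, adjusted p = 0.0164), a call that was lost without female 2 or female 5. Of 19 tested of 21 glucuronosyltransferase genes, 9 were higher in males and 1 lower, with a median of 0.43. Gstp1, a glutathione S-transferase known for its male bias in mouse liver, had 245, 348 and 641 CPM in males and 56.1, 68 and 83.1 CPM in females (log2 fold change 2.50 ± 0.22 SE, adjusted p = 1.94e-14). Gstm6 was higher by 1.22 ± 0.19, again with no overlap. Of 24 tested of 26 glutathione S-transferase genes, 7 were higher in males and 0 lower, with a median of 0.20, or -0.12 with library totals. Among carboxylesterases, which cleave esters of lipids and drugs, Ces3a had 1225, 1312 and 1809 CPM in males against 195, 333 and 406 CPM in females (log2 fold change 2.13 ± 0.18 SE, adjusted p = 4.78e-15), and Ces3b rose by 1.57 ± 0.22. Of 15 tested of 20 carboxylesterase genes, 8 were higher in males and 0 lower, with a median of 0.44 (7 higher and 1 lower without males 1 and 6 and female 1).

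Transporters on the hepatocyte membrane split in the same manner, often between neighbours of 1 cluster. Slco1a1, an uptake carrier for bile acids and conjugated steroids, had 194, 265 and 437 CPM in males and 7.76, 15.2 and 20 CPM in females (log2 fold change 4.20 ± 0.42 SE, adjusted p = 4.08e-12), whereas its neighbour Slco1a4 was at 57.2, 109 and 137 CPM in males and 169, 277 and 381 CPM in females (log2 fold change -1.46 ± 0.27 SE, adjusted p = 3.98e-05). Neither showed overlap between the sexes. In the Slc22a cluster of chromosome 19, Slc22a28 was at 3.1, 4.49 and 11.2 CPM in males against 0, 0.0752 and 0.153 CPM in females (log2 fold change 5.94 ± 0.50 SE, adjusted p = 4.27e-15). Slc22a26 was at 0.637, 1.36 and 2.97 CPM in males and 38.8, 75.5 and 93 CPM in females (log2 fold change -5.50 ± 0.35 SE, adjusted p = 1.03e-20), and Slc22a27 was lower by 4.23 ± 0.44. The organic anion carrier Slc22a7 rose by 2.07 ± 0.37, and female 1 came close to the lowest male. Of 23 tested of 40 Slco and Slc22 genes, 8 were higher in males and 5 lower, with a median of -0.09 (5 higher and 6 lower without males 1 and 6 and female 1). Of the ATP-driven pumps, Abcg2, which exports urate and sulfated steroids, had 61.2, 63.3 and 95 CPM in males and 21.7, 32.8 and 37.3 CPM in females (log2 fold change 1.17 ± 0.12 SE, adjusted p = 1.66e-11). Abcc4, a basolateral exporter of bile acids and cyclic nucleotides, was at 2.58, 2.73 and 2.97 CPM in males and 5.22, 6.64 and 11.8 CPM in females (log2 fold change -1.47 ± 0.19 SE, adjusted p = 9.87e-09), and the mitochondrial carrier Abcb10 was higher by 0.93 ± 0.10. Of 36 tested of 44 ABC transporter genes, 6 were higher in males and 4 lower, with a median of 0.00. As a list they thus stood near the shares over all autosomal genes, 11.7% higher and 8.91% lower.

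Genes of cholesterol synthesis were higher in males almost without exception. Of 23 cholesterol synthesis genes, 22 were higher in males and 0 lower, with a median of 1.31. In 18 of the 22 the sexes did not overlap. Srebf2, the transcription factor that drives the pathway, had 32.3, 35.7 and 41.9 CPM in males and 13.4, 19.3 and 21.7 CPM in females (log2 fold change 0.96 ± 0.14 SE, adjusted p = 1.73e-07). Among the enzymes, Mvk (mevalonate kinase) was at 7.07, 10.2 and 13.2 CPM in males against 1.96, 2.94 and 4.84 CPM in females (log2 fold change 1.64 ± 0.24 SE, adjusted p = 2.16e-07), and Mvd (mevalonate diphosphate decarboxylase) at 4.51, 8.76 and 12.8 CPM in males against 0.822, 1.36 and 2.36 CPM in females (log2 fold change 2.54 ± 0.43 SE, adjusted p = 7.04e-06). No male overlapped a female in these 3 genes. Hmgcs1, an early enzyme of the pathway, had 155, 266 and 426 CPM in males and 55.8, 79.3 and 117 CPM in females (log2 fold change 1.63 ± 0.35 SE, adjusted p = 0.000429). Sqle (squalene epoxidase) was at 22.9, 40.4 and 52.6 CPM in males against 4.17, 8.95 and 14.5 CPM in females (log2 fold change 2.14 ± 0.40 SE, adjusted p = 5.6e-05). Stard4, a cholesterol carrier, had 68, 106 and 131 CPM in males and 20.4, 36.1 and 59.5 CPM in females (log2 fold change 1.43 ± 0.23 SE, adjusted p = 2.85e-06). Every male was above every female in each of them. The member that missed the threshold was Hsd17b7, at 0.39 ± 0.15 (adjusted p = 0.0568). 

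**Figure D4:**
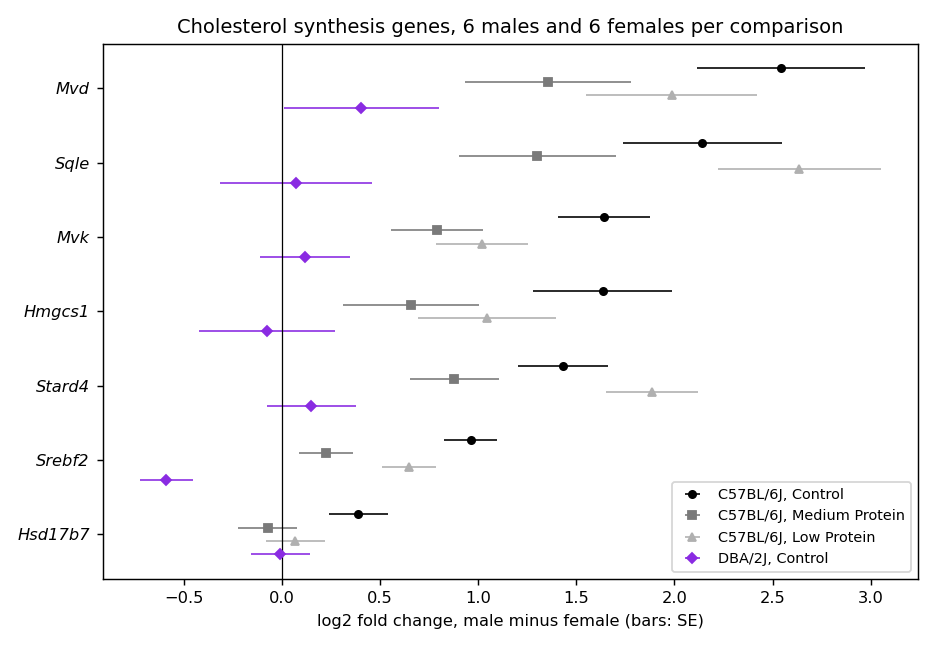
Log2 fold change of males over females with its SE for the 7 cholesterol synthesis genes named in the text, in C57BL/6J on Control (black circles), Medium Protein (grey squares) and Low Protein (light triangles) and in DBA/2J on Control (violet diamonds), from 6 males and 6 females each. The C57BL/6J Control points lie between 0.39 and 2.54, and the DBA/2J points between -0.59 and 0.41. Those of C57BL/6J on Medium Protein lie between -0.07 and 1.355, and on Low Protein between 0.07 and 2.64.

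Genes of fatty acid and triglyceride synthesis were less uniform. Elovl3, an elongase of very long fatty acids, had 48.5, 61.2 and 114 CPM in males against 0.0294, 1.31 and 2.16 CPM in females (log2 fold change 5.92 ± 0.48 SE, adjusted p = 1.2e-15). Fasn, fatty acid synthase, was at 205, 258 and 355 CPM in males and 95.2, 102 and 162 CPM in females (log2 fold change 1.19 ± 0.23 SE, adjusted p = 5.57e-05). Mlxipl, which encodes the carbohydrate-sensing factor ChREBP, had 128, 137 and 149.8 CPM in males and 60.4, 75.4 and 88.8 CPM in females (log2 fold change 0.89 ± 0.12 SE, adjusted p = 1.27e-08). No male overlapped a female in these 3 genes. Scd1, the stearoyl-CoA desaturase, overlapped and did not pass (0.84 ± 0.47, adjusted p = 0.212), and Lpin1 (-1.21), a phosphatidate phosphatase, and Gpat3 (-0.93), an acyltransferase, fell. Of 29 genes of fatty acid and triglyceride synthesis, 9 were higher in males and 6 lower, with a median of 0.14, or -0.18 with library totals. Cd36, a fatty acid uptake protein, was at 94, 98.8 and 159 CPM in males and 161, 227 and 286 CPM in females with no overlap (log2 fold change -1.06 ± 0.28 SE, adjusted p = 0.00389). Vldlr, a lipoprotein receptor, was lower by 1.97 ± 0.37, and Cidec, a lipid droplet fusion protein, by 1.78 ± 0.45. Fitm1, which partitions fat into droplets, rose by 2.23 ± 0.37. Of 26 genes of fatty acid uptake, binding and storage, 6 were higher in males and 5 lower, with a median of -0.13 (3 higher and 3 lower without males 1 and 6 and female 1). Apoa4, an apolipoprotein of triglyceride-rich particles, had 163, 351 and 632 CPM in males against 724, 1135 and 2092 CPM in females (log2 fold change -1.71 ± 0.39 SE, adjusted p = 0.000717). Of 26 apolipoprotein and lipoprotein assembly genes, 6 were higher in males and 1 lower, with a median of 0.14, or -0.19 with library totals (3 higher and 2 lower without males 1 and 6 and female 1).

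Targets of PPARA, the receptor that switches on fatty acid oxidation in fasting, were more often lower than higher in males where they passed. Ehhadh, a peroxisomal oxidation enzyme, had 482, 580.2 and 823 CPM in males and 1043, 1769 and 2157 CPM in females (log2 fold change -1.48 ± 0.23 SE, adjusted p = 1.43e-06). Acot2, a mitochondrial acyl-CoA thioesterase, was at 9.72, 12.5 and 14.6 CPM in males and 18.3, 29.5 and 38.9 CPM in females (log2 fold change -1.25 ± 0.28 SE, adjusted p = 0.000577). Both genes had every male below every female. Fgf21, a fasting hormone, was at 3.48, 4.2 and 6.25 CPM in males and 5.45, 12 and 16.9 CPM in females (log2 fold change -1.32 ± 0.41 SE, adjusted p = 0.016), and 4 of 6 males were below every female. The Fgf21 call was lost with limma-voom (adjusted p = 0.0754), against a fold of 1.2 (0.0534) and without males 1 and 6 and female 1 (0.0781). Cpt1a (-0.29), the gate of mitochondrial oxidation, fell slightly. Of 44 fatty acid oxidation and PPARA target genes, 4 were higher in males and 10 lower, with a median of -0.08 (2 higher and 10 lower without males 1 and 6 and female 1). Khk, ketohexokinase of fructose metabolism, was at 167, 208 and 222 CPM in males and 71.1, 97 and 123 CPM in females (log2 fold change 1.06 ± 0.17 SE, adjusted p = 2.23e-06). Of 27 genes of glycolysis and gluconeogenesis, 6 were higher in males and 2 lower, with a median of -0.01.

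Genes of bile acid metabolism went both ways, and more of them rose than fell. Cyp7b1, an oxysterol 7-alpha-hydroxylase, had 52.8, 77.2 and 158 CPM in males and 3.88, 9.04 and 12.2 CPM in females (log2 fold change 3.39 ± 0.36 SE, adjusted p = 3.09e-11). Cyp39a1, which hydroxylates another oxysterol, was at 9.59, 17.8 and 23.6 CPM in males against 32.3, 50.5 and 69.4 CPM in females (log2 fold change -1.59 ± 0.28 SE, adjusted p = 1.24e-05). Scp2, which encodes the peroxisomal thiolase of side chain shortening, had 2259, 2468 and 2831 CPM in males and 1119.8, 1448 and 1645 CPM in females (log2 fold change 0.83 ± 0.08 SE, adjusted p = 1.81e-12). Each of these genes separated the sexes completely. Of 33 tested of 34 genes of bile acid synthesis, conjugation and transport, 12 were higher in males and 4 lower, with a median of 0.25, or -0.09 with library totals.

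Complement genes were higher in males where they passed. C6, a part of the membrane attack complex, had 78.7, 106 and 175 CPM in males against 9.94, 14.6 and 30.2 CPM in females (log2 fold change 2.69 ± 0.24 SE, adjusted p = 5.12e-14). C8b, of the same complex, was at 147, 185 and 228 CPM in males and 30.7, 48 and 90.3 CPM in females (log2 fold change 1.82 ± 0.25 SE, adjusted p = 5.11e-08), and C8a (2.10) and C9 (1.35) rose with them. C4a, known in mouse as sex-limited protein, had 11.5, 21.9 and 55.4 CPM in males and 4.6, 5.54 and 6.25 CPM in females (log2 fold change 2.32 ± 0.31 SE, adjusted p = 2.73e-08). C1s1, a protease of the first component, showed a small difference with no overlap (log2 fold change 0.63 ± 0.08 SE, adjusted p = 1.33e-09). Of 29 complement genes, 19 were higher in males and 0 lower, with a median of 0.48. C3, the central component, did not pass, with means of 8634 CPM in males and 8651 CPM in females. Cfd, complement factor D, which is mostly an adipocyte product, had 1 count in the 6 females together, so its ratio of 93.4 has an exact Poisson interval of 16.8 to 3690.

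Serpina1e, 1 of the alpha-1-antitrypsin copies, had 518, 1097 and 1720.3 CPM in males against 6.55, 19.3 and 269 CPM in females (log2 fold change 4.24 ± 0.58 SE, adjusted p = 6.62e-08), and its highest female was again female 1. Serpina1c was at 4263, 4476 and 5129 CPM in males and 1537, 1962 and 2307 CPM in females (log2 fold change 1.23 ± 0.12 SE, adjusted p = 1.08e-12). Serpina12, which encodes vaspin, an adipokine, rose by 2.55 ± 0.42. Of 22 tested of 28 serpin A genes, 8 were higher in males and 0 lower, with a median of 0.32, or -0.01 with library totals (6 higher and 1 lower without males 1 and 6 and female 1), with 7 higher and 1 lower without males 1 and 6 alone. Susd4, a complement regulator, had 19.3, 23.3 and 37.4 CPM in males and 0.71, 0.884 and 2.04 CPM in females (log2 fold change 4.52 ± 0.27 SE, adjusted p = 6.82e-22). Nox4 was at 39.1, 52.8 and 60.8 CPM in males against 5.38, 6.67 and 13.2 CPM in females (log2 fold change 2.69 ± 0.24 SE, adjusted p = 3.93e-14). A1bg, the secreted protein named above, was at 0.0714, 0.324 and 0.625 CPM in males and 28.6, 105 and 262 CPM in females (log2 fold change -8.46 ± 0.76 SE, adjusted p = 3.79e-14). Every male lay above every female in Susd4 and Nox4 and below every female in A1bg. Hamp2, a copy of the iron hormone hepcidin, was at 1.11, 4.24 and 6.16 CPM in males and 14.7, 35.1 and 40.6 CPM in females (log2 fold change -2.97 ± 0.44 SE, adjusted p = 3.57e-07). Hamp itself fell by less (log2 fold change -0.87 ± 0.28 SE, adjusted p = 0.0186), and its call was lost without female 2, female 6 or male 5. Saa1, an acute phase protein, ran over a wide range at 4.34, 62.1 and 1348 CPM in males, against 2.91, 8.36 and 25.2 CPM in females (log2 fold change 4.76 ± 1.28 SE, adjusted p = 0.00476). Without male 4, the highest, it was at 2.82 with an adjusted p of 0.0863. Of 24 tested of 25 acute phase genes, 3 were higher in males and 2 lower, with a median of 0.05, or -0.29 with library totals. These counts are near the shares over all autosomal genes, 11.7% higher and 8.91% lower.

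Amino acid, mitochondrial and stress genes showed smaller differences. Haao, of tryptophan breakdown, was at 174, 191 and 218 CPM in males and 94.6, 106 and 156 CPM in females (log2 fold change 0.71 ± 0.11 SE, adjusted p = 2.36e-06), while Got1, cytosolic aspartate aminotransferase, was at 129.7, 174 and 284 CPM in males and 265, 478 and 573 CPM in females (log2 fold change -1.28 ± 0.32 SE, adjusted p = 0.00256). Of 52 genes of the urea cycle and amino acid breakdown, 16 were higher in males and 4 lower, with a median of 0.08, or -0.26 with library totals. Sdha, of complex II, had 306, 331 and 376 CPM in males and 213, 250.02 and 271 CPM in females (log2 fold change 0.43 ± 0.07 SE, adjusted p = 6.2e-06), and Cox6a1, of complex IV, rose by 0.61 ± 0.11. The call of Sdha was lost with library totals (0.10, adjusted p = 0.306). Of 78 tested of 83 nuclear respiratory chain genes, 27 were higher in males and 2 lower, with a median of 0.17, or -0.16 with library totals. Osgin1, a target of the antioxidant factor NRF2, rose by 1.86 ± 0.37, and Nqo1, a quinone reductase and another such target, fell by 0.94 ± 0.19 on the log2 scale. Of 28 NRF2 target genes, 6 were higher in males and 4 lower, with a median of 0.10, or -0.23 with library totals. Hyou1, a chaperone of the endoplasmic reticulum, rose by 0.81 ± 0.20. Of 29 chaperone genes, 8 were higher in males and 0 lower, with a median of 0.34 (4 higher and 1 lower without males 1 and 6 and female 1). Of 74 tested of 77 cytosolic ribosomal protein genes, 4 were higher in males and 3 lower, with a median of -0.03 (2 higher and 7 lower without males 1 and 6 and female 1). Of 35 interferon response genes, 3 were higher in males and 2 lower, with a median of 0.02, or -0.31 with library totals (1 higher and 3 lower without males 1 and 6 and female 1), with 1 higher and 2 lower without males 1 and 6 alone. These shares were below those over all autosomal genes, 11.7% higher and 8.91% lower. Of 21 class I and II MHC genes, 3 were higher in males and 0 lower, with a median of 0.09, or -0.26 with library totals (1 higher and 1 lower without males 1 and 6 and female 1), with 1 higher and 1 lower without males 1 and 6 alone. Of 21 circadian clock genes, 2 were higher in males and 0 lower, with a median of 0.26, or -0.07 with library totals (0 higher and 0 lower without males 1 and 6 and female 1), with 0 higher and 0 lower without males 1 and 6 alone.

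Cell cycle and ATF4 target genes were more often lower than higher in males where they passed, and several had their highest value in female 1. Ccnd1, which encodes cyclin D1, was at 7.86, 9.9 and 14.9 CPM in males against 39.3, 48.7 and 55.2 CPM in females (log2 fold change -2.15 ± 0.30 SE, adjusted p = 8.43e-08). Cdkn2c, a kinase inhibitor, was at 2.14, 2.4 and 3.13 CPM in males and 4.7, 4.9 and 6.31 CPM in females (log2 fold change -1.05 ± 0.16 SE, adjusted p = 1.62e-06). Both separated the sexes and passed with every library left out in turn. By contrast Mki67, a proliferation marker, was at 0.852, 1.84 and 2.85 CPM in males and 1.59, 3.15 and 25.3 CPM in females (log2 fold change -1.74 ± 0.46 SE, adjusted p = 0.00377), and without female 1, the highest, it was at -0.53 with an adjusted p of 0.373. Nupr1 and Atf3, which answer to stress, stood at -2.44 and -1.37 with all libraries and at -0.67 (adjusted p = 0.223) and -0.46 (adjusted p = 0.434) without female 1. Of 25 tested of 26 cell cycle genes, 1 was higher in males and 8 lower, with a median of -0.42 (1 higher and 2 lower without males 1 and 6 and female 1), with 1 higher and 4 lower without males 1 and 6 alone. Of 25 serine synthesis and ATF4 target genes, 2 were higher in males and 7 lower, with a median of -0.24 (3 higher and 2 lower without males 1 and 6 and female 1), with 1 higher and 4 lower without males 1 and 6 alone.

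Markers of other cell types were lower in males where they passed, apart from endothelial ones and Cfd among those of adipocytes. The 14 Kupffer cell and macrophage markers summed to 217 to 441 CPM in males and 291 to 767 CPM in females. Of 14 such markers, 0 were higher in males and 3 lower, with a median of -0.57. Lyz2 (-0.90 ± 0.27, adjusted p = 0.0119) lost its call without female 3, where it was at -0.60 with an adjusted p of 0.1, and Cd68 was at 1.69, 2.81 and 4.85 CPM in males and 3.45, 5.39 and 8 CPM in females (log2 fold change -0.89 ± 0.23 SE, adjusted p = 0.00273). The 10 stellate and matrix markers summed to 264 to 413 CPM in males and 340 to 539 CPM in females. Of 10 such markers, 0 were higher in males and 3 lower, with a median of -0.41. Dcn, a matrix proteoglycan, was lower (log2 fold change -0.52 ± 0.11 SE, adjusted p = 0.000472), while Lum (-0.85 ± 0.21), another, was at -0.49 with an adjusted p of 0.054 without female 1. The 11 endothelial markers summed to 341 to 438 CPM in males and 355 to 469 CPM in females (2 rose, 0 fell). Without males 1 and 6, 1 endothelial marker rose and 1 fell, as also without female 1 as well. The 6 cholangiocyte markers summed to 24.3 to 30.4 CPM in males and 19.5 to 49.9 CPM in females (0 rose, 1 fell, or 0 without males 1 and 6). The 9 B and plasma cell markers summed to 5.06 to 19.9 CPM in males and 10.7 to 21 CPM in females (0 rose, 1 fell, or 3 without males 1 and 6 and 2 without female 1 as well). T and NK cell, neutrophil, red blood cell and pancreas markers had no call, although 1 T and NK cell marker fell without males 1 and 6, and no marker tested was at 0 in all 12 libraries. In bulk tissue, fewer cells of a type and less RNA per cell cannot be told apart, and the part of these cells in the other differences was not tested.

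Lars2, a mitochondrial leucyl-tRNA synthetase gene that also collects ribosomal-like reads, was among the 12 largest rises, at 41.2, 1806 and 107979 CPM in males and 24.7, 49 and 113 CPM in females (log2 fold change 8.98 ± 2.17 SE, adjusted p = 0.00159). Its high values were those of males 6, 1 and 3, and without males 1 and 6 it was at 4.14 with an adjusted p of 0.0885. Zbed4-ps2, a pseudogene, was among the 12 largest falls, with 2 counts in the 6 males together and 11.7, 27.2 and 31.3 CPM in females, a ratio of 1990 with an exact Poisson interval of 550 to 16400. Of 41 genes known from textbooks as male-biased in mouse liver, 34 rose and 0 fell (median 2.67). Of 60 known as female-biased, 43 fell and 2 rose (median -1.91), the 2 being Srd5a1 and Cyp26a1 (1.34), a retinoic acid hydroxylase. Without males 1 and 6 and female 1, 44 of them fell and 4 rose.

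The same sex comparison was made in 3 sets of other animals, and the sizes were set side by side. On Medium Protein 3078 autosomal genes passed in C57BL/6J (16.4%, 10.1% higher and 6.32% lower in males). On Low Protein 5274 passed (28.1%, 14.5% higher and 13.6% lower), and in DBA/2J on Control 3402 (18.2%, 10.5% higher and 7.7% lower). Of the 2186 genes higher in C57BL/6J males on Control, 1004 were called higher on Medium Protein, 1054 on Low Protein and 723 in DBA/2J, and 4, 29 and 72 were called lower. Of the 1669 lower genes, 562, 823 and 396 were called lower in these sets, and 2, 18 and 59 higher. Seen from the other side, the genes called alike are 50.9% of the Medium Protein calls, 35.6% of the Low Protein calls and 32.9% of the DBA/2J calls. Mup7 stood at 11.70 on Medium Protein, 11.39 on Low Protein and 9.60 in DBA/2J, and Cyp3a41a at -13.31, -10.95 and -11.35, each on the log2 scale. Slco1a1 was at 4.23, 4.26 and 4.27, and Sult3a1 at -9.64, -10.17 and -13.34. Of the 23 cholesterol synthesis genes, 12 were called higher in males on Medium Protein (median 0.66) and 20 on Low Protein (median 1.04), and 0 lower. The difference of either diet from Control passed for 0 of them.

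The difference between the strains was tested as an interaction, C57BL/6J minus DBA/2J on Control, which called 1561 genes (8.33%), 831 above 0 (4.43%) and 730 below (3.9%). Of the 23 cholesterol synthesis genes, 19 passed with a larger male excess in C57BL/6J, and 0 with a smaller one. In DBA/2J 0 of the 23 were higher in males and 1 was lower, Srebf2 at -0.59 ± 0.14, where C57BL/6J had 0.96 ± 0.14 (difference 1.55, adjusted p = 1.39e-07). In DBA/2J Sqle was at 8.07, 21.1 and 43.8 CPM in males and 9.35, 19.3 and 41.4 CPM in females (0.07), and Mvd at 2.53, 5.02 and 9.95 CPM in males and 2.18, 3.95 and 8.25 CPM in females (0.41). Cyp2c genes also differed, 8 of 13 called above 0, with Cyp2c54 at 2.39 in C57BL/6J and -0.24 in DBA/2J (difference adjusted p = 5.29e-06). Cyp2c40 fell in both strains, by 5.24 in C57BL/6J and by 10.78 in DBA/2J (adjusted p of the difference 2.26e-08). Serpina1e was at 4.24 in C57BL/6J and -0.08 in DBA/2J (difference adjusted p = 9.57e-05), and Mup11 at 6.56 and 0.93 (adjusted p = 3.04e-05). Abcg2 had the smaller male excess in C57BL/6J, 1.17 against 2.65 in DBA/2J (adjusted p = 2.26e-08). Adh6-ps1, an alcohol dehydrogenase pseudogene, was at 1.24 in C57BL/6J and 7.66 in DBA/2J (adjusted p = 1.85e-08). Myo5b, a myosin motor of vesicle transport, was at 0.08 in C57BL/6J and -0.64 in DBA/2J (adjusted p = 1.39e-07), and Ndst1, of heparan sulfate synthesis, at 0.51 and -0.23 (adjusted p = 2.11e-06). 

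**Figure D5:**
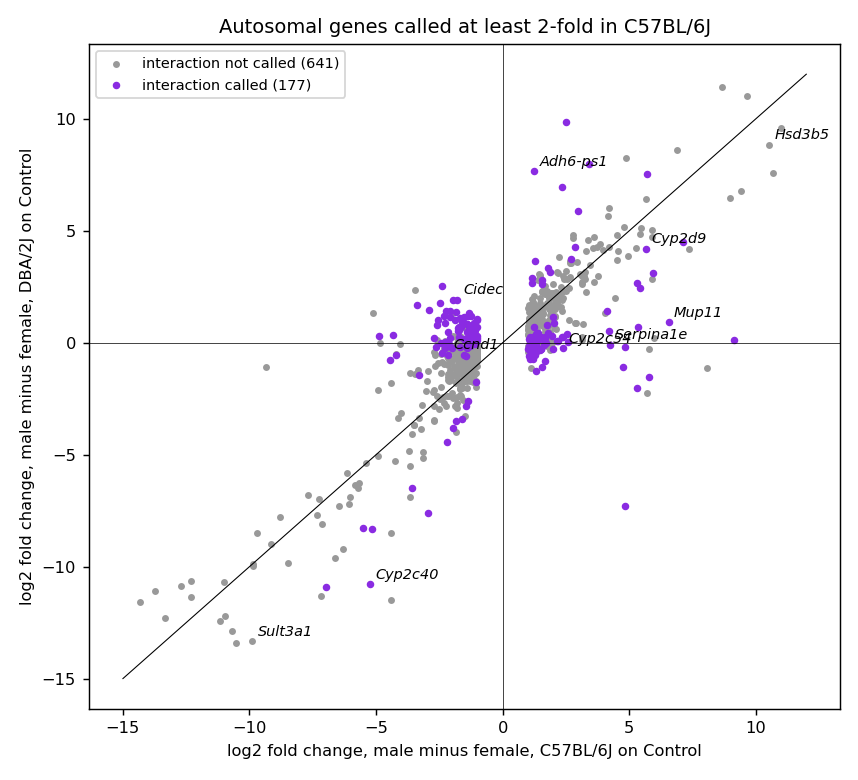
Log2 fold change of males over females in C57BL/6J (horizontal axis) and in DBA/2J (vertical axis), both on Control, for the 818 autosomal genes called at least 2-fold in C57BL/6J, where the line marks equal values. Violet points are the 177 genes whose difference between strains passed and grey points the 641 others, and Mup11, Serpina1e and Cyp2c54 lie below 1 in DBA/2J.

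Within C57BL/6J, the sex difference on Control minus that on Low Protein called 856 genes (4.57%), 2.72% above 0 and 1.85% below. Minus that on Medium Protein it called 33 (0.176%), 0.0747% above 0 and 0.101% below. Against Low Protein, 31 of 78 respiratory chain genes and 22 of 52 urea cycle and amino acid genes had a higher male minus female value on Control, and 0 of either a lower one. The direction changed with diet. Of the respiratory chain genes, 27 were higher and 2 lower in males on Control, 4 and 5 on Medium Protein and 0 and 26 on Low Protein. For the urea cycle and amino acid genes these counts were 16 and 4, 6 and 7, and 3 and 27. Sulf2, a heparan sulfatase, fell by 0.60 on Control and by 2.83 on Low Protein (adjusted p of the difference 2.63e-07), and Acpp, an acid phosphatase, was at 0.03 on Control and -3.17 on Low Protein (5.05e-06). Smim19 (0.09 and -0.99) and Pex16, a peroxisome assembly factor (0.19 and -0.60), also had a higher value on Control, whereas App (-0.59 and 0.29), the amyloid precursor gene, and Bod1l (-0.19 and 0.28) had a lower one. Against Medium Protein, Siah2, a ubiquitin ligase (0.36 and -0.43, adjusted p of the difference 0.00227), Mbnl2, a splicing factor (-0.28 and 0.46, 0.00421), and Sult1e1 (-4.12 and 1.54, 0.00589) led. Sult1e1 was at 0.149, 0.345 and 37.5 CPM in males on Medium Protein and at 0.873, 1.70 and 5.99 CPM in females. Its highest male thus lay far above the median, and the call of the difference was lost with limma-voom (adjusted p = 0.337) and with only the compared groups (0.142). They were followed by Erbb2, a receptor kinase (0.38 and -0.74), Nav2 (0.14 and -0.67) and Osbpl3, a lipid transfer protein (0.40 and 2.96). The call was lost for Osbpl3 with limma-voom (0.185) and with only the compared groups (0.122), and for Erbb2 with only the compared groups (0.073). Against a fold of 1.2 it was lost for Nav2 (0.0956), Mbnl2 (0.0874) and, on Low Protein, Bod1l (0.0993). Without 1 library in turn, between 20 and 111 genes passed against Medium Protein, the highest without female 3 and the lowest without female 5.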

How the data were processed

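Per the labels, liver RNA was made into stranded polyA libraries and sequenced on 2 lanes that were merged. The deposited values are expected counts per gene, estimated by the authors with RSEM, per the submitters' processing notes, which also name edgeR, limma and R 3.4.3. Aligner, genome build and annotation were not given in the sources used. Of the values, 11.6% were not whole, and expected counts were rounded. Gene IDs were named from GENCODE M21 (51719 of 51912 matched). The authors' deposited table of their own comparisons holds diet comparisons and was not used.

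Genes were kept by filterByExpr over the 12 groups, scaled by TMM and tested with edgeR 4.0.16 (R 4.3.3) by glmQLFit and glmQLFTest, 2-sided, with 12 group means over all 72 libraries (common biological coefficient of variation 0.207). P-values were adjusted by Benjamini-Hochberg over all 19362 genes, and a gene was called at an adjusted p below 0.05. Log2 fold changes are males minus females, and an SE is the fold change divided by the root of F. The steps were checked on simulated data. Floors of 3 counts and exact 95% Poisson intervals cover counting error only. Near-identical gene families share reads, so single copies are uncertain. Promoter windows come from RefSeq, build GRCm38.p6.

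The members and gene lists were chosen with earlier results of these data known. The genes described come from the 12 highest and 12 lowest fold changes among called autosomal genes whose mean log2 CPM was 0 or more and whose name is not a predicted one. They also come from up to 5 called genes per direction and up to 2 others per list, the 6 smallest p per interaction, and Cux2, Bcl6, Stat5b, Ghr, Socs2, Igf1, Esr1 and sex-linked checks. Some genes of the rule are not reported here. Hmgcs1, Sqle, Nox4, Mup22, Mup16, Mup10, Lpin1, C8a, C9 and Cpt1a were named after their values were seen. Alternatives were RLE factors, library totals, TMM without the 10 most abundant genes, no filter, CPM of at least 1 in 6 libraries, DESeq2 1.42.0, limma-voom (limma 3.58.1), only the compared groups, glmTreat at a fold of 1.2, adjustment over autosomal genes, unrounded counts and leaving each library out.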

Additional observations from a re-analysis of the deposited data

Results flagged for a closer look

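For the genes described, the 6 values of each sex were searched for a highest or lowest library far from the rest, by Dixon's test at the 95% level. It marked 39 of 275 sets (14.2%). The rate of about 1 in 20 by chance holds for normal values only. CPM values can be skewed or hold several 0 values, so the share marked cannot be set against that rate. Female 1 was the library most often marked, 11 times, followed by male 2 with 6. Male 1 had the highest male value by a wide gap, in CPM 69.9 for Igfbp1, 302 for Cyp2c54 and 559 for Cyp2c50. Male 2 had the highest male value by a wide gap, in CPM 64 for Cyp2u1, 111 for Hsd3b5, 6.18 for Ugt2b38, 11.2 for Slc22a28, 37.4 for Susd4 and 66 for Adh6-ps1. Male 3 had the highest male value by a wide gap, in CPM 0.227 for Cyp3a44, 11.6 for Cyp2c40, 5.54 for Cyp2c69 and 1.39 for Sult1e1. Male 4 had the highest male value by a wide gap, in CPM 44.2 for Bcl6 and 1348 for Saa1, and the lowest male value by a wide gap, in CPM 131 for Cebpa. Male 5 had the highest male value by a wide gap, in CPM 184 for Prlr, 42.8 for Cyp2b9, 34 for Cyp2a22 and 159 for Cd36. Male 6 had the highest male value by a wide gap, in CPM 0.0557 for Cyp2b13, which is the 1 count of all 6 males, and the lowest male value by a wide gap, in CPM 158 for Ndst1. Female 1 had the highest female value by a wide gap, in CPM 195 for Mup20, 12.4 for Cyp2b10, 11.2 for Slc22a7, 269 for Serpina1e, 25.3 for Mki67, 9.69 for Nupr1, 6.46 for Atf3, 15 for Lum and 90.8 for App, and the lowest female value by a wide gap, in CPM 120.4 for Prlr and 21.7 for Abcg2. Female 3 had the highest female value by a wide gap, in CPM 2.04 for Susd4. Female 4 had the highest female value by a wide gap, in CPM 8.36 for Mup7 and 2.96 for Mup21. Female 5 had the highest female value by a wide gap, in CPM 0.123 for Hsd3b5, which was near 0 in every female. Female 6 had the highest female value by a wide gap, in CPM 43.7 for Cidec and 113 for Lars2.

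The male minus female difference in C57BL/6J differed from that in DBA/2J by the interaction test (edgeR's quasi-likelihood test, adjusted p below 0.05) in 52 of the genes described. On the log2 scale, C57BL/6J minus DBA/2J, it was above 0 in Igfals (0.75), Prlr (1.31), Stat5b (0.51), Cux2 (2.89), Tox (1.22), Trim24 (0.73), Mup11 (5.63), Mup1 (2.59), Mup14 (2.62), Cyp2d9 (1.47), Cyp2c54 (2.62), Cyp2c50 (1.74), Cyp2b9 (3.17), Cyp2c40 (5.54), Cyp2c69 (3.96), Slc22a28 (2.84), Slco1a4 (1.37), Slc22a26 (2.76), Srebf2 (1.55), Mvk (1.52), Mvd (2.14), Stard4 (1.28), Sqle (2.07), Hmgcs1 (1.71), Fasn (1.22), Mlxipl (0.78), Vldlr (1.83), Khk (0.91), Cyp39a1 (1.80), Serpina1e (4.32), Saa1 (5.83), Cdkn2c (0.72), Myo5b (0.72), Ndst1 (0.74), Siah2 (0.58), Erbb2 (0.80) and Nav2 (0.62). It was below 0 in Mup21 (-1.86), Hsd3b2 (-1.57), Hsd17b13 (-0.73), Abcg2 (-1.48), Cidec (-3.70), Ehhadh (-1.60), Fgf21 (-2.64), Apoa4 (-2.41), Scp2 (-0.40), Ccnd1 (-1.61), Dcn (-0.63), Lum (-1.25), Nox4 (-1.07), Adh6-ps1 (-6.42) and Osbpl3 (-1.60).

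Within C57BL/6J the sex difference on Control differed from that on Low Protein in 30 of these genes by the same test. Control minus Low Protein, it was above 0 on the log2 scale in Cyp2d9 (1.25), Cyp2c50 (0.90), Slco1a4 (1.65), Elovl3 (2.76), Khk (0.84), C1s1 (0.39), Hamp2 (3.34), Haao (0.58), Sdha (0.48), Cox6a1 (0.72), Lars2 (9.96), Ndst1 (0.55), Sulf2 (2.23), Acpp (3.21), Smim19 (1.07), Pex16 (0.79), Erbb2 (0.75) and Nav2 (0.75). It was below 0 in Cyp2c40 (-1.85), Cyp2c69 (-2.88), Hsd17b13 (-0.50), Abcc4 (-0.92), Acot2 (-1.36), Fgf21 (-1.88), Cyp39a1 (-1.45), Osgin1 (-1.73), Nupr1 (-2.54), App (-0.88), Bod1l (-0.47) and Mbnl2 (-0.67). Lars2 is one of the ribosomal-like genes that were high in males 6, 1 and 3 on Control, and their part in its value was not tested. Against Medium Protein it differed in 8. Control minus Medium Protein, it was above 0 in Hamp2 (2.73), Siah2 (0.80), Erbb2 (1.11) and Nav2 (0.81). It was below 0 in Sult1e1 (-5.67), Bod1l (-0.33), Mbnl2 (-0.74) and Osbpl3 (-2.56). A positive value means a larger male excess, or a smaller female excess, in C57BL/6J or on Control.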

How the results depend on the processing

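Of 143 results on single genes, 114 kept their direction and their side of the threshold in every alternative. All 143 did so with RLE factors, with DESeq2, with either filter setting, without the 10 most abundant genes, with adjustment over autosomal genes and with unrounded counts. Library totals turned 3 uncalled genes to the other sign, Cyp3a11 (-0.21), Hnf4a (-0.18) and Stat5b (-0.13). They also took the call from 4 genes, Igf1, Igfals, Cebpa and Sdha, and gave 1 to Socs2. With library totals 8606 autosomal genes passed between the sexes, 464 higher and 8142 lower in males, in place of 3855. Against a fold of 1.2 the count was 1233, and with no filter 2889. With only the compared groups in the fit it was 2713, and 2553 of the 3855 calls (66.2%) were kept. With 1 library left out it ran from 3085 without female 2 to 4092 without female 4. It was 3423 without males 1 and 6 and 3077 without female 1 as well, settings chosen after seeing the data. The same comparison gave 2184 genes on Low Protein, 1025 on Medium Protein and 1114 in DBA/2J against a fold of 1.2, and with library totals 6211 on Medium Protein and 7024 in DBA/2J. The difference between the strains (1561) gave 347 against a fold of 1.2 and 1035 with no filter, and 1160 to 1811 with 1 library left out. That between Control and Low Protein (856) gave 67 against a fold of 1.2, 2514 with library totals, 408 with no filter and 398 with only the compared groups, and 552 (without male 3) to 1086 with 1 library left out. That between Control and Medium Protein (33, with 2242 at an unadjusted p below 0.05) gave 8 against a fold of 1.2, 50 without the 10 most abundant genes, 21 with no filter, 63 with the CPM filter, 53 adjusted over autosomal genes, 11 with only the compared groups and 141 with DESeq2, and 20 (without female 5) to 111 (without female 3) with 1 library left out, so this count depends on the setting. The cause of these changes was not tested. Calls lost when 1 library was left out were those of Mki67, Nupr1, Atf3 and Lum (female 1), Lyz2 (female 3), Saa1 (male 4), Hamp, Ugt1a5 and Cyp4a14, and Hsd17b7 gained a call without female 5, female 6 or male 6. No paired analysis was made. Replicate numbers were given in order, and the labels do not explain the number and letter that open each title. Males 2 and 4 share such a number with different letters, as do females 2 and 6. Whether animals of 1 number are related was not tested. At 27745114 to 38447505 counts per library, depth limits the genes with 0 counts in a whole group, whose folds are lower bounds.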
